A study of Mus musculus with 8 samples.

Results

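The genes Cldn10, Epcam, Jup, Ajuba and Ctnnb1, 5 genes known from the junctions between epithelial cells, were followed in activated mouse CD4 T cells labelled as carrying or lacking Bcl6. They were picked with the KO and WT values of these same arrays in view, so their genotype differences are given as a description and carry no test. All probe sets whose only symbol in the platform annotation is one of these names were taken, which gave 6 probe sets for the 5 genes, of 21789 probe sets with 1 symbol for 19938 genes. Cldn10 has 2 probe sets and each of the other genes has 1. A further probe set lists 1 of the 5 genes together with another gene symbol and was left out.

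The KO group held 4 arrays of cells from mice with a conditional Bcl6-/- genotype restricted to T cells, and the WT group 4 arrays of wild-type cells. Naive CD4 T cells of both groups were sorted and cultured for 24 hours. The medium held anti-CD28 and anti-CD3, neutralising antibodies against TGF beta, IFN gamma and IL-4, and the cytokines IL-21 and IL-6, and the labels call the product follicular helper T cells. Strain, age, the driver of the deletion and the number of mice are not given in the sources used here, so the spread between arrays may be partly technical. Bcl6, the deleted gene, read 9.08 to 9.19 in the KO-labelled arrays and 8.61 to 8.91 in the WT-labelled arrays. It was thus higher in KO-labelled arrays, past the threshold of the fit over all tested genes (difference 0.3775 ± 0.0645, SE, limma adjusted p = 0.0303). The sources used here do not place its probe set inside or outside the deleted part of the gene, so this does not check the labels, and directions are those of the labels. All 10 T cell markers on the array passed the expression filter, with a mean level of 12.33 to 12.34 in KO-labelled and 12.28 to 12.40 in WT-labelled arrays. KO replicate 1 stood apart: its median deviation from the group mean was 0.115 log2 units, against 0.04 to 0.0725 in the other KO-labelled arrays, and it correlated best with WT replicate 3.

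Epithelial cells are held together by tight junctions, which seal the space between cells, by adherens junctions, which tie cadherins to actin, and by desmosomes, which tie desmosomal cadherins to keratin. Claudins are the membrane proteins of tight junctions, and claudin-10 forms ion-selective pores. Epcam is an adhesion molecule that marks epithelial cells and also some dendritic cells, among them Langerhans cells. Beta-catenin (Ctnnb1) and its close relative plakoglobin (Jup) link cadherins to the cytoskeleton, and beta-catenin is also the nuclear partner of the Tcf and Lef transcription factors of T cells. Ajuba is a LIM-domain scaffold that binds at adherens junctions and restrains the Lats kinases of the Hippo pathway.

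Bases upstream of the annotated starts are shown for the 4 genes with the largest genotype differences, because Bcl6 is a DNA-binding repressor. Each window holds the 250 bases before a transcript start, 5′ to 3′ on the gene's strand, from RefSeq (GRCm38.p6), and Cldn10 has 2 starts. Capitals mark matches, on either strand, to the motifs searched: TTCNNNGAA (the core shared by Bcl6 and STAT sites), CTTTGA (Tcf and Lef factors), GGAATG (TEAD factors of the Hippo pathway) and CAGGTG (Snail and Zeb repressors).
Cldn10, start 1, chr14:118787621-118787870, plus strand: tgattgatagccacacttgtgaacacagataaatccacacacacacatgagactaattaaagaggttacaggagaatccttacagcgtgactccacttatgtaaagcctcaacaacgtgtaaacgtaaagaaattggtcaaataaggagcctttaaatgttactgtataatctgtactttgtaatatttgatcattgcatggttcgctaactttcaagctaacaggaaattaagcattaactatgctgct
Cldn10, start 2, chr14:118854700-118854949, plus strand: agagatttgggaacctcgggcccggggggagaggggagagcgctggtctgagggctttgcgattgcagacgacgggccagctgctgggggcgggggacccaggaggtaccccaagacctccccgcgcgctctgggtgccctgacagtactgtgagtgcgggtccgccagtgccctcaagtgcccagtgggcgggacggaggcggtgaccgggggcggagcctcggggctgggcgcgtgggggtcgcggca
Epcam, chr17:87635729-87635978, plus strand: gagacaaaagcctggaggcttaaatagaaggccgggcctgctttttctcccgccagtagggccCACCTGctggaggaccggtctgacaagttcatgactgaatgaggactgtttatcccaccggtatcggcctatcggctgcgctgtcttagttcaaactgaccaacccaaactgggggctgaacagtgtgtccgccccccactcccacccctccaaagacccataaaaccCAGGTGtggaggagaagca
Jup, chr11:100397791-100398040, minus strand: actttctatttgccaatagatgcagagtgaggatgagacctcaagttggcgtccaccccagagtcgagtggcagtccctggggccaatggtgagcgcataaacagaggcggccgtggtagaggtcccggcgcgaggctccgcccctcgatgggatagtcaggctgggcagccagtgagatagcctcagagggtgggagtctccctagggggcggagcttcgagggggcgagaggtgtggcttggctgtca
Ajuba, chr14:54577662-54577911, minus strand: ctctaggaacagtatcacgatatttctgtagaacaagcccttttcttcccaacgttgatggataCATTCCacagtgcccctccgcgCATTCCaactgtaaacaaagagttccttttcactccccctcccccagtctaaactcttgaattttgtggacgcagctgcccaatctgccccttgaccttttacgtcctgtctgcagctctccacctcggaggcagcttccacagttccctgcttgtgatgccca
The Ajuba window held the TEAD letters at 186 and 164 bases before the start, both on the opposite strand, and 12.6% of 32851 upstream windows of all genes hold them at least once. The Epcam window held CAGGTG at 19 bases before the start and its reverse complement at 187, letters present in 17.2% of all windows. No match overlapped another. The Bcl6 and STAT core, present in 7.02% of windows, and CTTTGA, present in 13.8%, were not among the letters of any of the 7 windows of the 5 genes. The Cldn10 windows differed in composition, with 36.0% G and C before the first start and 72.4% before the second, against a median of 52.4% over all windows. These matches describe letters and say nothing of binding.

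Cldn10 was lower in KO-labelled cells on both probe sets, and its KO level was near that of genes of other tissues. Its brighter probe set read 6.70, 6.66, 6.70 and 6.79 in KO replicates 1 to 4, against 7.42, 7.76, 7.65 and 7.64 in WT replicates 1 to 4 (log2 signal). The groups lay 0.63 apart, with WT replicate 1 the lowest of its group. The mean was 6.71 ± 0.055 in KO-labelled and 7.62 ± 0.142 in WT-labelled arrays (SD, n = 4 each), a difference of -0.905 ± 0.0763 (SE). The dimmer probe set read 6.64, 6.63, 6.66 and 6.65 in the KO-labelled arrays, against 7.20, 7.51, 7.47 and 7.48 in the WT-labelled arrays, a difference of -0.77 ± 0.0725 (SE). Both probe sets thus gave the same picture: a flat KO level and a WT level that was higher in every array. In bulk RNA, fewer cells that make a transcript and less transcript per cell cannot be told apart.

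Background was read from 44 genes of other tissues on the array (liver, pancreas, muscle, eye, brain and others), whose median lay between 6.57 and 6.91 in KO-labelled and between 6.62 and 6.755 in WT-labelled arrays. Probe sets differ in their response, so such heights are rough, and heights of different genes are not set against each other. Cldn10 stood 0.02 ± 0.179 log2 units above that median in KO-labelled arrays and 0.91 ± 0.162 above it in WT-labelled arrays (SD, n = 4 each). Of the 44 genes, 21 had a mean over 8 arrays above the KO mean of Cldn10 and 6 had one above its WT mean. On neither Cldn10 probe set did any KO or WT array exceed the 90th percentile of the 44 genes. No KO array and all 4 WT arrays passed the expression filter for Cldn10, the 40th percentile of an array's named probe sets. That filter was passed by 16 of the 44 genes of other tissues as well, among them Oxt, the oxytocin gene, so passing it does not by itself show that T cells make a transcript. Mbp, the highest of the 44, has transcripts known from lymphoid cells.

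Epcam was lower in KO-labelled cells, near the middle of the array's range in both groups. It read 7.31, 7.51, 7.50 and 7.66 in KO replicates 1 to 4, against 8.14, 8.20, 8.04 and 7.89 in WT replicates 1 to 4. KO replicate 4 and WT replicate 4 came closest to each other, 0.23 apart, and the groups did not overlap. The difference was -0.57 ± 0.0986 (SE), between a mean of 7.495 ± 0.143 in KO-labelled and 8.07 ± 0.136 in WT-labelled arrays (SD, n = 4 each). Its height over the genes of other tissues was 0.80 ± 0.289 in KO-labelled and 1.36 ± 0.077 in WT-labelled arrays. No KO array, against all 4 WT arrays, exceeded the 90th percentile of those genes.

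Jup was also lower in KO-labelled cells. It read 7.46, 7.60, 7.57 and 7.63 in KO replicates 1 to 4, against 7.95, 8.14, 8.11 and 8.18 in WT replicates 1 to 4. Replicate 1 was the lowest of each group, and a gap of 0.32 separated the groups. The difference was -0.53 ± 0.0626 (SE), and the height over the genes of other tissues was 0.87 ± 0.221 in KO-labelled and 1.38 ± 0.147 in WT-labelled arrays (SD, n = 4 each). As with Epcam, the 90th percentile of those genes was exceeded in 0 KO arrays and in 4 WT arrays.

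Ctnnb1, the relative of Jup, was well above background in every array and differed little. It read 11.43, 11.54, 11.55 and 11.60 in KO replicates 1 to 4, against 11.63, 11.68, 11.74 and 11.69 in WT replicates 1 to 4. The highest KO array lay 0.03 below the lowest WT array, a margin of a few rounding steps of the deposited values. The difference was -0.155 ± 0.0423 (SE), and Ctnnb1 stood 4.83 ± 0.22 above the genes of other tissues in KO-labelled and 4.97 ± 0.0867 above them in WT-labelled arrays (SD, n = 4 each). None of the 44 genes reached it.

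Ajuba went the other way and was higher in KO-labelled cells. It read 8.83, 8.93, 9.09 and 9.12 in KO replicates 1 to 4, against 7.69, 8.05, 8.12 and 8.07 in WT replicates 1 to 4. WT replicate 1 lay well under the other WT-labelled arrays, and the groups were 0.71 apart. The mean was 8.99 ± 0.137 in KO-labelled and 7.98 ± 0.197 in WT-labelled arrays (SD, n = 4 each), a difference of 1.01 ± 0.12 (SE) or 2.01-fold. Its height over the genes of other tissues was 2.30 ± 0.278 in KO-labelled and 1.27 ± 0.23 in WT-labelled arrays. The 90th percentile of those genes was exceeded in 4 KO arrays and in 3 WT arrays. Among the 44 genes, 1 (Mbp) had a mean above the KO mean of Ajuba, and 4 had one above its WT mean.

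**Figure D1:**
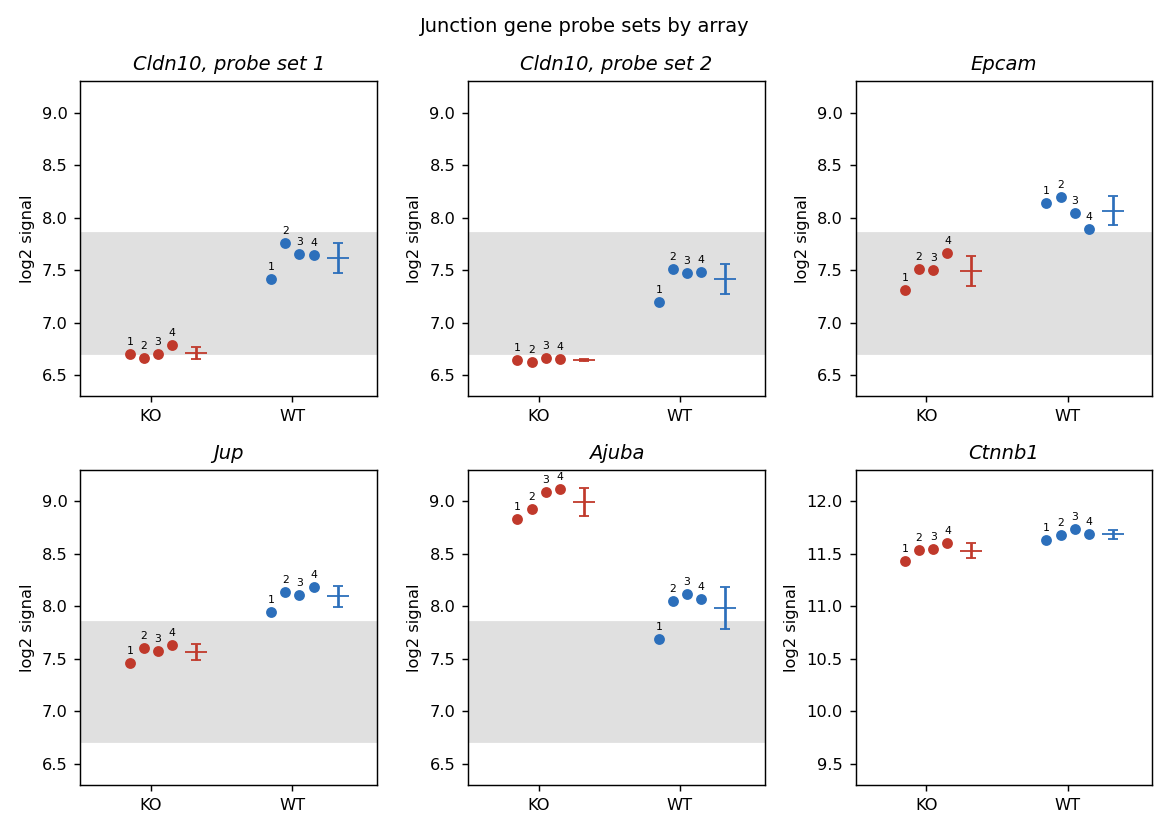
Log2 signal of the 6 probe sets in each array, KO at left and WT at right, with replicate numbers on the points and group mean ± SD beside them (n = 4 each). The grey band runs from the median to the 90th percentile of 44 genes of other tissues, averaged over arrays, and lies under the axis range for Ctnnb1. KO points of Cldn10 sit at the lower edge of the band, KO points of Epcam and Jup inside it, and KO points of Ajuba above it. WT points of both Cldn10 probe sets also lie inside the band.

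In the fit over all 11926 tested genes (limma, Benjamini-Hochberg adjusted p under 0.05), 4 of the 5 genes passed, Ajuba higher and Cldn10, Epcam and Jup lower, against 1.32% of all tested genes (0.646% higher, 0.671% lower). The KO-labelled and WT-labelled arrays did not overlap in any of the 5 (1 higher, 4 lower), against 10.8% of all tested genes (3.10% higher, 7.66% lower). Since the genes were chosen on this contrast, nothing is read from these counts. Epcam did not pass when KO replicate 2 or 3, or WT replicate 1, 2 or 3, was left out. At this threshold Ajuba and Jup passed in all 18 alternative fits, and Cldn10 in all 13 in which it was tested. In the main fit Cldn10 passed the expression filter only through its WT arrays. These counts rest on the values by which the genes were chosen, so they too are only a description. Among tested genes 3 had a more negative difference than Cldn10 and 9 a more positive one than Ajuba, whereas 980 had a more negative one than Ctnnb1. Without KO replicate 1 the differences were -0.90 for Cldn10, -0.51 for Epcam, -0.495 for Jup, 1.06 for Ajuba and -0.12 for Ctnnb1.

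Deviations from the group means were compared between genes over the 8 arrays, which share 1 normalization, and are given as a description. The 2 probe sets of Cldn10 deviated together (Pearson's r = 0.91). Jup deviated together with Ajuba (r = 0.87), with Ctnnb1 (r = 0.77) and with the brighter Cldn10 probe set (r = 0.73), although Ajuba and Jup differed between the genotypes in opposite directions. Ajuba likewise deviated together with Ctnnb1 (r = 0.82) and with the brighter and dimmer Cldn10 probe sets (r = 0.8 and 0.83). Replicate 1 was the lowest of its group for Jup, Ajuba and Ctnnb1 in both genotypes, and KO replicate 1 is the array that stood apart. For Cldn10 only WT replicate 1 was the lowest. These r values lean on those arrays, and r without them was not computed. Epcam followed none of the other genes closely, with r from 0.13 with Ajuba to 0.46 with Ctnnb1 and -0.17 with the dimmer Cldn10 probe set.

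Genes with the most similar profile over all 8 arrays were sought among 11271 other tested genes by Pearson's r, which here reflects mostly the step between genotypes. For Cldn10 these were Dvl1, a Wnt signal transducer (r = 0.997), Tln1, the integrin-linked talin (0.99), and Jup itself (0.982). Jup was matched by Plcxd2 (0.991), Wdr26 (0.991) and the receptor gene Cd96 (0.99), and Epcam by Scaf4 (0.996), Gramd1a (0.99) and Itsn2 (0.99). The profile of Ajuba was closest to those of Agpat4, an acyltransferase of phospholipid synthesis (0.993), F2r, a thrombin receptor (0.991), and Lipg, a lipase (0.986). For Ctnnb1 they were the RNA-editing enzyme Adar (0.991), the tyrosyl-tRNA synthetase Yars (0.99) and Ago1, of the small-RNA machinery (0.988). This measure takes no account of the size of a difference. Dvl1 averaged 9.50 ± 0.0141 in KO-labelled and 9.65 ± 0.0171 in WT-labelled arrays (SD, n = 4 each), a difference of -0.1525, against -0.905 for Cldn10.

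The gene lists below leave out the 5 genes themselves, so Cldn10, Jup, Ajuba, Epcam and Ctnnb1 are in none of their counts. Over all tested genes 16.6% had an unadjusted p under 0.05. Many junction partners of these proteins were under the expression filter. Over the whole array, 11926 of 19938 genes were tested. Of 45 tight junction genes on the array, 18 were tested and 23 did not reach the filter on any of the 8 arrays. Among those 23 were the scaffold gene Tjp1 (6.01 ± 0.238 in KO-labelled, 5.98 ± 0.0922 in WT-labelled arrays), the membrane protein occludin (Ocln, 5.42 ± 0.163 and 5.40 ± 0.0808 in the same order) and the adhesion molecule F11r (6.56 ± 0.0826 and 6.43 ± 0.0957; SD, n = 4). Of 22 claudins other than Cldn10, 8 passed the filter, with group means between 7.005 and 7.52, a range that genes of other tissues also occupied, and differences between -0.04 and 0.03. None of the 8 passed the test (limma, also 0 at an unadjusted p under 0.05), where 1.32% of all tested genes did. Of the 18 listed tight junction genes tested 0 passed and 3 had an unadjusted p under 0.05, and the largest differences were those of Patj, a polarity scaffold (-0.24 ± 0.0512, SE, limma adjusted p = 0.0561), and Cldnd1, a claudin-domain gene (0.20 ± 0.0574, SE, limma adjusted p = 0.116).

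No listed gene of classical cadherin junctions or desmosomes passed the test, which 1.32% of all tested genes passed. Jup, which passed, and Ctnnb1, which did not, are outside these lists. E-cadherin (Cdh1) read 6.50 ± 0.0618 in KO-labelled and 6.50 ± 0.0775 in WT-labelled arrays, and the catenin Ctnnd1 6.24 ± 0.111 and 6.125 ± 0.153 in the same order (SD, n = 4), all under the filter. The desmosomal cadherin Dsg2 was likewise under it in every array, and desmoplakin (Dsp), the keratin linker, was above it in 2 of 8. Alpha-catenin (Ctnna1), which joins catenins to actin, was clearly above background at 9.815 ± 0.037 in KO-labelled and 9.74 ± 0.0936 in WT-labelled arrays, with a difference of 0.07 ± 0.0549 (SE, limma adjusted p = 0.586). Among adherens junction genes 0 of 11 tested passed, and among desmosome genes 0 of 4 (limma, 0 in both lists at an unadjusted p under 0.05), with median differences of 0.035 and -0.03 against -0.02 over all tested genes. The largest differences were those of the adhesion molecule Nectin1 (0.19, limma adjusted p = 0.559), its actin linker Afdn (0.105, limma adjusted p = 0.571), the desmosomal linker Evpl (-0.07, limma adjusted p = 0.664) and the plakophilin Pkp4 (0.055, limma adjusted p = 0.779).

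**Figure D2:**
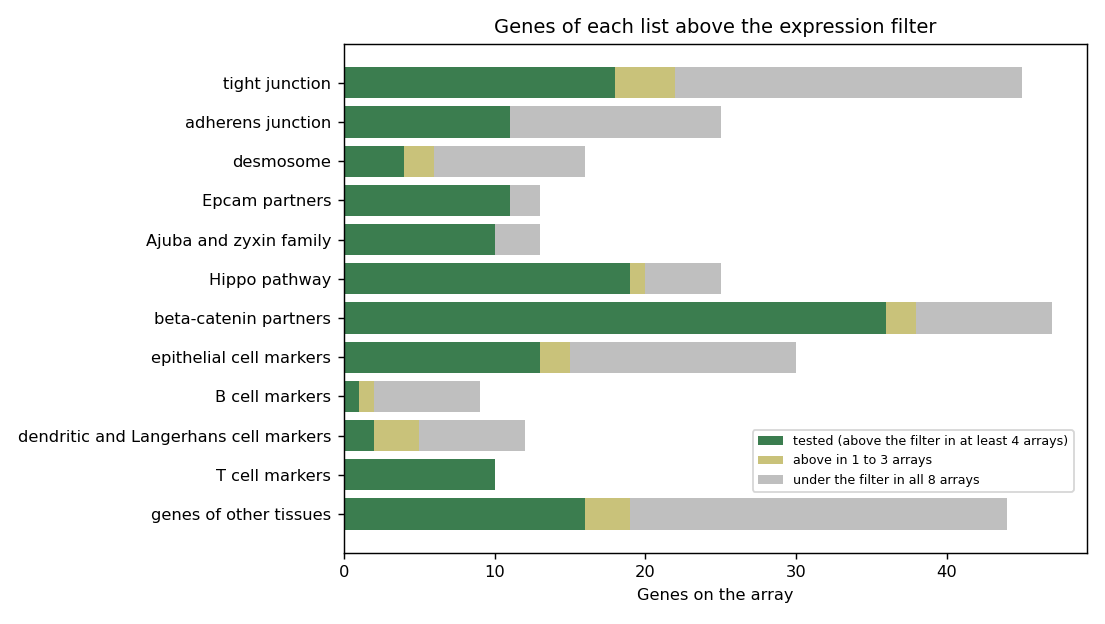
Number of genes of each list on the array, split into those tested (past the expression filter on 4 or more arrays), those past it on 1 to 3 arrays and those past it on none. All 10 T cell markers were tested, against 18 of 45 tight junction genes and 4 of 16 desmosome genes, while 16 of 44 genes of other tissues also passed.

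Partners and proteases of Epcam mostly passed the expression filter, and none passed the test (limma, 0 of 11 tested, 1 at an unadjusted p under 0.05, median difference 0.03). The share over all tested genes was 1.32%. Spint2, an inhibitor of membrane serine proteases, was lower in every KO-labelled array, at 9.63, 9.62, 9.64 and 9.71, against 9.92, 9.88, 9.96 and 9.80 in WT-labelled arrays. The difference of -0.24 ± 0.0493 (SE) just missed the threshold (limma adjusted p = 0.0501). With 1 array left out, Spint2 passed only without KO replicate 1 (-0.23, limma adjusted p = 0.0278) or without WT replicate 4 (-0.27, limma adjusted p = 0.0457). Without KO replicate 1 the share over all tested genes was 6.59%. Adam10, a sheddase of membrane proteins, differed by 0.075 ± 0.0665 (SE, limma adjusted p = 0.652).

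Among relatives of Ajuba and zyxin, Ajuba itself left out, 1 of 10 tested genes passed, higher in KO-labelled arrays, where 0.646% of all tested genes did. This was Lpp, a zyxin relative found at focal adhesions and the chromosomal neighbour of Bcl6, which read 11.21 to 11.25 in KO-labelled and 10.08 to 10.25 in WT-labelled arrays (difference 1.055 ± 0.049, SE, limma adjusted p = 1.53e-05). The other 9 had negative differences, down to -0.365 ± 0.0767 (SE, limma adjusted p = 0.0527) in Lpxn, which encodes the leukocyte adhesion adaptor leupaxin. Lpxn read 10.74 to 10.91 in KO-labelled and 10.98 to 11.31 in WT-labelled arrays, without overlap. The closest relatives of Ajuba, Limd1 and Wtip, differed by -0.01 and -0.04 (limma adjusted p = 0.939 and 0.912).

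The Hippo and beta-catenin lists held no call over the 8 arrays. Of all tested genes 1.32% passed and 16.6% had an unadjusted p under 0.05 (limma). Of Hippo pathway genes 0 of 19 tested passed (limma, 4 at an unadjusted p under 0.05, median difference -0.07), with the largest difference in the scaffold gene Sav1 (-0.22 ± 0.0797, SE, limma adjusted p = 0.212), which was lowest in KO replicate 1. Of beta-catenin partners 0 of 36 passed (limma, 8 at an unadjusted p under 0.05, median difference -0.02). In the Hippo list Frmd6, an upstream regulator, came next with 0.15 (limma adjusted p = 0.429). Axin1, a scaffold of the complex that degrades beta-catenin, differed by -0.18 ± 0.0661 (SE, limma adjusted p = 0.207), and Ruvbl2, an ATPase that binds beta-catenin, by 0.18 ± 0.0751 (limma adjusted p = 0.258). Lef1, the nuclear partner of beta-catenin, averaged 11.93 ± 0.0404 in KO-labelled and 12.03 ± 0.0377 in WT-labelled arrays (SD, n = 4 each), a difference of -0.11 ± 0.044 (SE, limma adjusted p = 0.255).

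Over the 7 lists together, 1 of 109 tested genes passed, Lpp, and the median difference was -0.02, equal to that of all tested genes. Without KO replicate 1 the number was 8 of 109 (3 higher, 5 lower), where 6.59% of all tested genes passed. Chosen after their values were seen, the others were Cdc73, a beta-catenin cofactor (0.21, limma adjusted p = 0.0329), and Nf2, an upstream activator of the Hippo kinases (0.18, limma adjusted p = 0.0401), which rose, and 5 genes that fell. These 5 were Patj (-0.26, limma adjusted p = 0.0173), Spint2, Lpxn (-0.33, limma adjusted p = 0.0346), Evl, an actin regulator (-0.22, limma adjusted p = 0.0416), and Dvl1 (-0.15, limma adjusted p = 0.048).

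**Figure D3:**
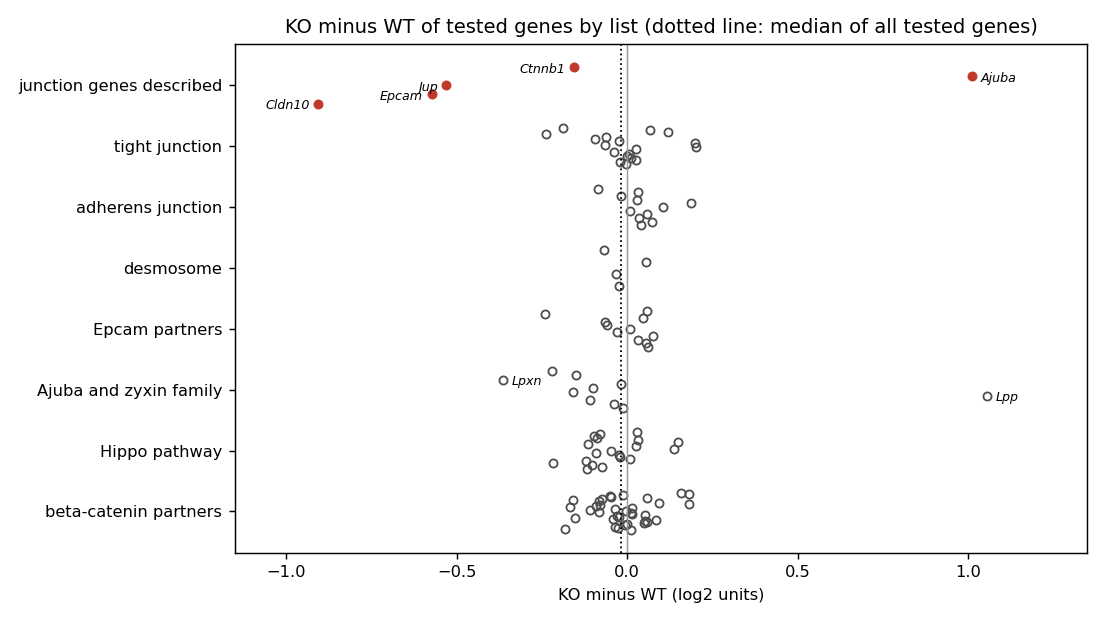
KO minus WT in log2 units for the 5 junction genes described (filled, top row) and for the tested genes of 7 lists (open points, 1 per gene). The dotted line is the median of all tested genes, -0.02. Lpp (1.055) was the only list gene past the threshold, and the 5 genes of the top row were chosen on this contrast.

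Markers of other cell types known to carry such junction genes were read beside these results, and none passed the test (limma, 0 of the epithelial, dendritic and B cell markers at an unadjusted p under 0.05). The shares over all tested genes were 1.32% past the test and 16.6% at an unadjusted p under 0.05. Of 30 epithelial markers on the array, 13 were tested, 15 passed the filter on no array and 0 passed the test. The mean of the list ranged from 6.80 to 7.10 in KO-labelled and from 6.895 to 7.001 in WT-labelled arrays, with overlap. Its highest members were Muc1 (9.41 and 9.47 in KO-labelled and WT-labelled arrays), which activated T cells are also known to make, St14 and Krt8. Spint1, Aire, Cldn4, Cldn3 and Esrp2 were also above the filter on all 8 arrays. Krt18, Krt5, Krt14, Esrp1 and Grhl2 were among the 15 under it on every array. Of 12 dendritic and Langerhans cell markers 2 were tested and 0 passed, with a list mean of 6.335 to 6.50 in KO-labelled and 6.35 to 6.55 in WT-labelled arrays. Of 9 B cell markers 1 was tested and 0 passed, and the list mean was 6.14 to 6.47 in KO-labelled and 6.26 to 6.35 in WT-labelled arrays. All 3 list means overlapped between the groups over the 8 arrays. For the B cell list this rested on KO replicate 1 (6.47), since the other KO-labelled arrays read 6.14 to 6.24, under every WT-labelled array. Of these 9 genes, 7 were under the filter on all 8 arrays. The mean of the genes of other tissues was also highest in KO replicate 1 (6.79). It was 6.47 to 6.56 in the other KO-labelled arrays and 6.55 to 6.67 in WT-labelled arrays. So nothing is read from the B cell means. The part of these markers in the differences of Cldn10, Epcam and Jup was not tested.

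**Figure D4:**
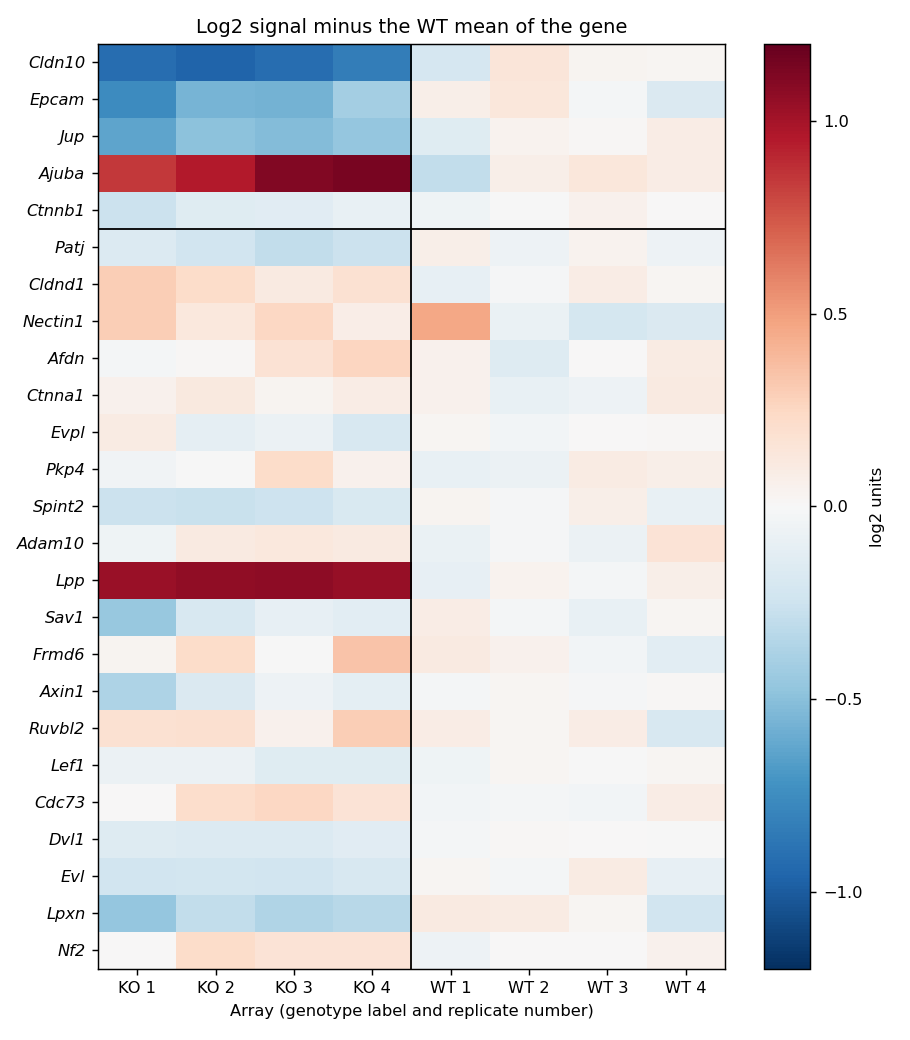
Log2 signal of each gene in each array minus the mean of its 4 WT-labelled arrays, KO at left and WT at right, for the 5 junction genes (above the line) and 20 tested list genes (below it). The rows of Cldn10, Epcam and Jup are blue and those of Ajuba and Lpp red in all 4 KO-labelled arrays, while most other rows stay near 0.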

How the data were processed

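Messenger RNA was measured on Affymetrix whole-transcript arrays, 1 array per sample, from 100 ng of total RNA per the labels' protocols. The authors deposited log2 values, 1 per probe set and array, and the submitters' processing notes name RMA and Partek without versions or order of steps. RMA normally equalises the distributions of arrays, so a change in total RNA would not show. The deposited distributions were close but not identical. Medians ran from 7.35 to 7.42 and 40th percentiles of named probe sets from 6.91 to 7.15, both highest in KO replicate 1. The number of arrays limits the precision.

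Of 35556 probe sets, 21789 had 1 symbol in the platform annotation, 1621 had several and 12146 were not listed; 21698 matched the RefSeq gene table. The probe set with the highest mean stood for a gene. Genes above the 40th percentile of the array's named probe sets in at least 4 arrays, and Bcl6, were tested: 11926 in all. KO and WT arrays were compared with limma 3.58.1 (R 4.3.3; two-sided moderated test by lmFit and eBayes without a block, Benjamini-Hochberg adjustment over all tested genes, threshold 0.05). In simulated KO against WT comparisons of 11926 genes, 84.4% of log2 changes of 0.5 and 99% of those of 1 were recovered. The share of false calls was 6.78%. These rates hold for the simulated noise only. The measured arrays were unequal, with a median deviation from the group mean of 0.115 in KO replicate 1 and 0.035 in WT replicate 2. Leaving out 1 array moved the count of genes past the threshold between 28 and 782. The rates may thus be too favourable for the measured arrays. SE of the 5 junction genes come from the group variances, those of list genes from limma.

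The 5 genes and all lists were chosen with earlier results of these data known. The naming rule took every list gene past the threshold, or else the 2 with the largest difference, a few central genes of each list, the 3 highest marker genes and, for each junction gene, the 3 genes with the highest r; some genes it also names are not reported here. Alternatives changed the normalization, the filter, the variance prior, array weights, the choice of probe set, the threshold, the arrays used and the block. No genome build is named for the arrays, so coordinates belong only to the upstream windows.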

Additional observations from a re-analysis of the deposited data

Results flagged for a closer look

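In 8 of 142 groups of 4 values, 1 array lay far from the other 3, and chance alone gives about 1 in 20. In WT replicate 1, the dimmer Cldn10 probe set was low (7.2, the others 7.47 to 7.51), as were Ajuba (7.69, the others 8.05 to 8.12), Plcxd2 (8.93, the others 9.03 to 9.04), Lipg (7.83, the others 8.14 to 8.2) and Ago1 (10.34, the others 10.46 to 10.48). In KO replicate 1, Adam10 was low (10.64, the others 10.8 to 10.82) and Krt8, an epithelial keratin, was high (8.22, the others 7.6 to 7.68). Cdc73 was high in WT replicate 4 (11.2, the others 11.08 to 11.09).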

How the results depend on the processing

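The genotype differences of the 5 junction genes kept their direction in all 65 recomputed values and moved by less than the spread between replicates. Leaving out 1 array at a time gave -0.97 to -0.86 for Cldn10, -0.63 to -0.51 for Epcam, -0.58 to -0.495 for Jup, 0.9125 to 1.06 for Ajuba and -0.18 to -0.12 for Ctnnb1. Past the threshold were Epcam in 12 and Ctnnb1 in 1 of 18 settings. Cldn10 fell under the filter whenever a WT array was left out, since it needs 4 arrays above it. Heights were also taken over the 40th percentile of each array, a level above the median of the genes of other tissues in every array. On that scale Cldn10 stood at -0.285 in KO arrays and at 0.6075 in WT arrays. A negative height there does not place Cldn10 under the genes of other tissues. Epcam stood at 0.4975 and 1.0575 and Jup at 0.5675 and 1.085 in KO and WT arrays. Ajuba stood at 1.995 and 0.9725 and Ctnnb1 at 4.5325 and 4.675 in the same order. The count of 157 genes over the whole array ranged from 28 to 782 with 1 array left out (28, without WT replicate 3; 30, without WT replicate 2; 32, 34 and 68 without KO replicates 2, 3 and 4; 72 without WT replicate 1; 782 without KO replicate 1). It was 27 at a threshold of 0.01, 468 at 0.1, 322 after another quantile normalization, 78 with arrays centred on their medians (48 higher, 30 lower), 58 without a filter, 354 with an intensity trend and robust prior and 1980 with array weights. The count of 1 in the 7 lists ranged from 1 to 8 with 1 array left out (8 without KO replicate 1, 3 without WT replicate 4). It was 7 at a threshold of 0.1, 3 after another quantile normalization, 4 with the filter at the 50th percentile, 5 with an intensity trend and robust prior and 16 with array weights. The cause was not tested. A filter percentile taken over all probe sets, chosen after seeing the data, gave 111 genes and 1 in the lists. With the replicate number as a block, 36 genes and 1 list gene passed, and Epcam did not; same-numbered arrays deviated together with r of 0.0111, 0.145, -0.174 and 0.308, so the numbers were not taken to pair the samples.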

Other observations

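The nearest tested genes on the chromosome were read beside each junction gene, in the gene order of GRCm38.p6. Dzip1, next to Cldn10 on chromosome 14, differed by -0.3025 (limma adjusted p = 0.136), and Abcc4 on the other side by -0.06 (limma adjusted p = 0.634). Beside Ajuba, also on chromosome 14, Haus4 differed by 0.07 and Psmb5 by 0.03 (limma adjusted p = 0.642 and 0.883). The neighbours of Epcam on chromosome 17 (Calm2, 0.115, and Kcnk12, -0.05) and of Jup on chromosome 11 (Hap1, -0.125, and Nt5c3b, 0.025) had limma adjusted p from 0.458 to 0.849. Rpl14, next to Ctnnb1 on chromosome 9, differed by -0.315 (limma adjusted p = 0.403), and Trak1 by -0.05 (limma adjusted p = 0.699). None of these 10 neighbours passed the threshold (limma), which 1.32% of all tested genes passed, and 1 of them, Dzip1, had an unadjusted p under 0.05, as did 16.6% of all tested genes.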
